A study of Homo sapiens with 4 samples.

Results

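The transcription factors of the osteoblast lineage described here were followed through mineralization of hFOB1.19 cells. They are RUNX1, RUNX2, RUNX3, SP7, DLX5, MSX1, MSX2, TWIST1 and TWIST2. They were taken by gene symbol, and all 9 were found among the 19610 symbols of the mRNA table, where they hold 31 of the 79798 transcripts. hFOB1.19 is a human fetal osteoblast line immortalized with a temperature-sensitive large T antigen of SV40. Its cells divide at the lower culture temperature and were moved to a higher one to mineralize, in the same medium with serum. The series holds 1 library of total RNA for each of day 0, the control before induction, and days 3, 6 and 9 of differentiation. Day 0 is also the single library from the lower temperature, so time and temperature cannot be told apart in any comparison with it. With 1 library per day there is no replicate error and no test between days, and all values describe these 4 libraries. The values are FPKM, fragments scaled to transcript length and to the mapped fragments of the library, summed over the transcripts of a gene. Ratios are on the log2(FPKM + 1) scale, where differences of weakly expressed genes come out too small, and a log2 ratio of at least 1 or at most -1 was taken as past the 2-fold limit.

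RUNX2 is the factor that commits mesenchymal cells to the osteoblast lineage, and SP7 (osterix) acts after it in cells that go on to form bone matrix. The RUNX proteins share a DNA-binding runt domain that recognizes TGTGGT and pair with CBFB, which steadies their binding to DNA. DLX5, MSX1 and MSX2 are homeodomain proteins that act upstream of RUNX2 and beside it, while TWIST1 and TWIST2 are basic helix-loop-helix proteins that hold RUNX2 activity back in early osteoblast precursors. RUNX genes are read from a distal and a proximal promoter, which give proteins with different amino ends.

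The start regions of RUNX2 and RUNX3 show this double layout, and that of MSX2 belongs to the member with the greatest difference from day 0. RefSeq (GRCh38.p14) holds 8 start regions for 6 of the 9 members, and none was matched for SP7, DLX5 and TWIST1. The FPKM table names no genome build and ties no transcript to a start site, so these sequences stand beside the values and not under them. Each is given 5′ to 3′ on the gene's strand, from 250 bases before the start to 30 bases after it. Capitals mark TGTGGT or its reverse complement ACCACA in the RUNX genes, and the palindrome TAATTA, a core of many homeodomain sites, in MSX2.
RUNX2 distal, chr6:45328080-45328359, + strand: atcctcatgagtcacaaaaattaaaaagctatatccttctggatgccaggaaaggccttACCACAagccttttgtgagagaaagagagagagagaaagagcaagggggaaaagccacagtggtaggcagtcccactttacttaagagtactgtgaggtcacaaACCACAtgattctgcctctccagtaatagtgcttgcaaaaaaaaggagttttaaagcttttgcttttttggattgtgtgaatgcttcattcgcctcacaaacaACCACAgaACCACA
RUNX2 proximal, chr6:45422025-45422304, + strand: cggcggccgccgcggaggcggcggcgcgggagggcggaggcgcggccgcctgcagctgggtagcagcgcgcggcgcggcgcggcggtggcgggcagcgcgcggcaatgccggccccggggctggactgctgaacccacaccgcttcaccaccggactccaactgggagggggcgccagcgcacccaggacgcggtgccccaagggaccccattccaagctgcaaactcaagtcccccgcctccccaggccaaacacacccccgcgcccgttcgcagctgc
RUNX3 distal, chr1:24964981-24965260, - strand: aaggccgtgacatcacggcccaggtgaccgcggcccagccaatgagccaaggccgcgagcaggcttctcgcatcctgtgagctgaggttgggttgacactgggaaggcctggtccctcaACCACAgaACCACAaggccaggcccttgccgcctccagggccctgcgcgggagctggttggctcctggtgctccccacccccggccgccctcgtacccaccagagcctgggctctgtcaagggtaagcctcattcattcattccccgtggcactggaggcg
RUNX3 proximal, chr1:24930247-24930526, - strand: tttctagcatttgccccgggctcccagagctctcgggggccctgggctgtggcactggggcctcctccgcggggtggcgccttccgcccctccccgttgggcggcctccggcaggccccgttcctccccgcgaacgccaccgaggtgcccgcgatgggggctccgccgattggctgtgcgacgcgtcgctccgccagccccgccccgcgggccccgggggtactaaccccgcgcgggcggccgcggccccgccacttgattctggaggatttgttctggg
MSX2, chr5:174724332-174724611, + strand: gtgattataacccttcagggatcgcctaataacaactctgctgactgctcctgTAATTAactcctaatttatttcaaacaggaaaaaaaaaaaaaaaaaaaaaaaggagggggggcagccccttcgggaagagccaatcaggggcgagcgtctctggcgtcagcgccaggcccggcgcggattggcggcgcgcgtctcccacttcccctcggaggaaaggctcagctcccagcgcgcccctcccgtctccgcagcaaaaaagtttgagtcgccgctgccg

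The start sites of RUNX2 lie 93945 bases apart and those of RUNX3 34734. In the whole 300-base entries, TGTGGT or its complement occurred 4 times in the distal region of RUNX2 and 2 times in that of RUNX3. It occurred 0 times in both proximal regions and in the RUNX1 entry, which lies inside that gene, downstream of its 5′ end. Of all 35116 entries in the RefSeq table, 13.1% hold the motif on either strand. Both distal regions share the string CAACCACAGAACCACAAG, 18 bases with the complement of the RUNX motif in it 2 times. It lies at bases 15 to 32 after the start in RUNX2 and at bases -133 to -116 before it in RUNX3, and no other entry of the table holds it. TAATTA occurs 1 time in the MSX2 entry, at base -197, and in 4.84% of all entries, and 0 times in those of the other 5 matched members. The proximal regions are rich in G and C, with 76.0% in RUNX2 and in RUNX3, against 42.7% in the distal region of RUNX2 and 66.3% in that of RUNX3. These are matches of letters and were not tested for binding.

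All members but SP7, 8 of 9, reached 1 FPKM in any library. Relative to day 0, RUNX1, RUNX2 and MSX2 were past the 2-fold limit on days 3, 6 and 9, and 0 members were 2-fold lower on any day. Of the 12859 genes with at least 1 FPKM in any library, 8.13%, 9.01% and 9.60% were 2-fold higher on days 3, 6 and 9, while 5.30%, 6.42% and 6.52% were 2-fold lower. On all 3 days together, 5.93% were higher and 3.45% lower. In RNA from whole cultures, fewer cells of a kind and less RNA per cell cannot be told apart. Between days 3 and 6, and between days 6 and 9, 0 members were past the limit in either direction. Such steps were rare in the table as a whole, with 0.607% of genes higher and 0.443% lower on day 6 against day 3, and 0.381% higher and 0.163% lower on day 9 against day 6. Over all 12859 genes the median log2 ratio to day 0 stood at -0.08, -0.08 and -0.09 for days 3, 6 and 9. Scaling the libraries to the same FPKM total moved that median to 0.10 on day 3, and with it the share of higher genes among those past the limit from 60.6% to 77.8%, but the same 3 members stayed past the limit.

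**Figure D1:**
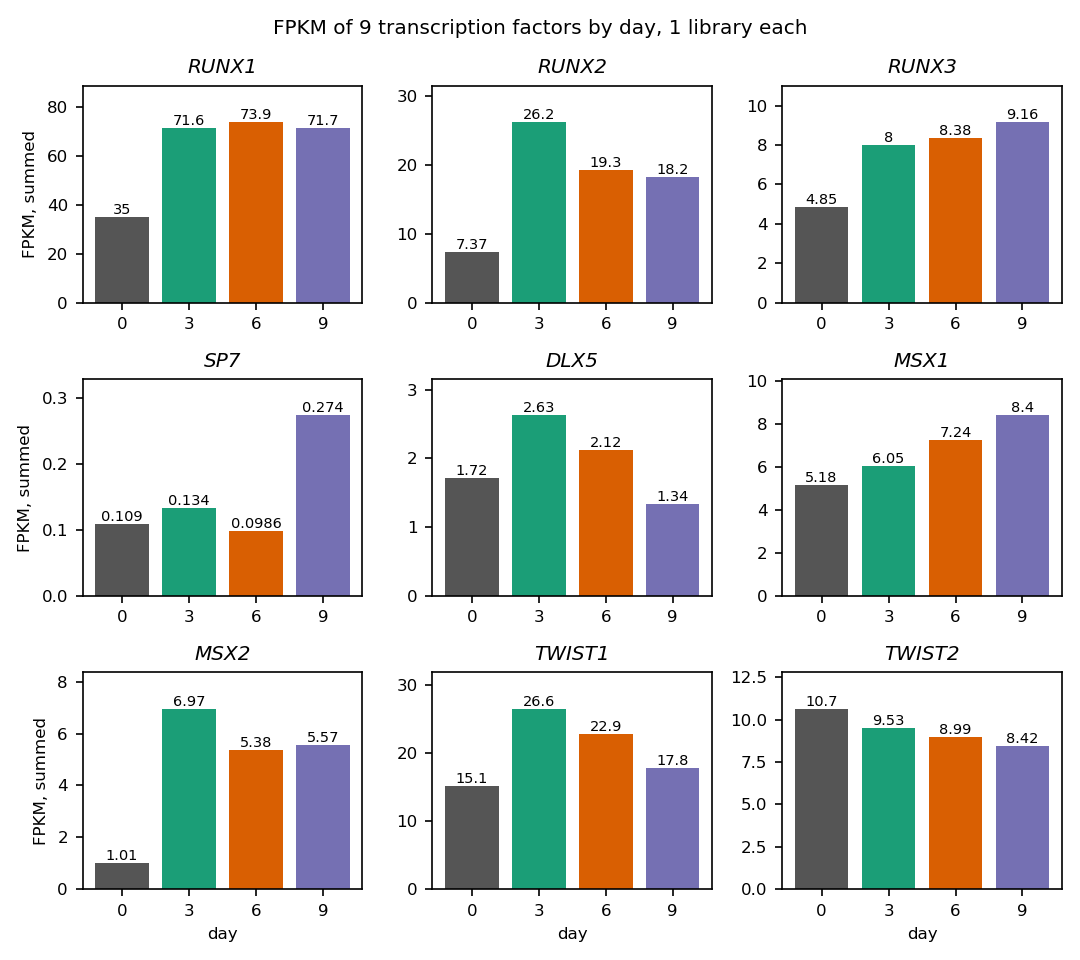
Bars give the summed FPKM (vertical axis, a scale of its own for each gene, from 0) of each factor on days 0, 3, 6 and 9 (horizontal axis), 1 library each, so there are no error bars. RUNX1, RUNX2 and MSX2 stand apart on day 0, with 35.0, 7.37 and 1.01 FPKM against at least 71.6, 18.2 and 5.38 on the later days, and SP7 stays under 0.3 FPKM throughout.

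RUNX2 (ENSG00000124813) stood at 7.37 FPKM in the control library and at 26.2, 19.3 and 18.2 FPKM on days 3, 6 and 9. The later 3 libraries were all above day 0, with the highest value on day 3 and a lower level after it. Its log2 ratios to day 0 were 1.70, 1.28 and 1.2. On day 3, 2.65% of the 12859 genes had a larger ratio, and on day 9 6.98% did. The log2 ratio of day 6 to day 3 was -0.42, at about the 5th percentile of all genes in that comparison, and that of day 9 to day 6 was -0.08.

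RUNX1 (ENSG00000159216), best known from blood stem cells and also active in early skeletal cells, was the most abundant member in every library. It had 35.0 FPKM before induction, followed by 71.6, 73.9 and 71.7. The 3 later libraries lay within a narrow band that does not reach down to day 0. Its log2 ratios, 1.01, 1.05 and 1.01, only just passed the 2-fold limit. With the libraries scaled to the same total they were 1.21, 1.23 and 1.12.

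RUNX3 (ENSG00000020633), which acts in chondrocyte maturation and in lymphocytes, went from 4.85 FPKM to 8.0, 8.38 and 9.16. Every library was above the one before it, as for 11.9% of all genes. The log2 ratios to day 0 of 0.62, 0.68 and 0.80 stayed within the 2-fold limit. Added together, the RUNX genes had 47.3 FPKM on day 0 and 105.8, 101.5 and 99.0 on days 3, 6 and 9. RUNX1 made up 74.1% of that sum on day 0 and 67.7% on day 3, while RUNX2 went from 15.6% to 24.8% and stood at 18.3% on day 9. RNA of CBFB, the shared partner of the RUNX proteins, stood at 82.6 FPKM on day 0 and at 51.8, 60.7 and 55.6 later, within the 2-fold limit with log2 ratios of -0.66, -0.44 and -0.56. The summed RUNX FPKM were therefore 0.573 times that of CBFB on day 0 and 2.04, 1.67 and 1.78 times on days 3, 6 and 9. These are ratios of RNA and say nothing of protein amounts.

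The members also differed in which transcripts carried their FPKM. For RUNX1, 9 transcripts are listed, of which 6 were above 0 in every library. The isoform names and promoters given here for RUNX1 are background knowledge that the table does not hold. ENST00000358356, known as the short isoform RUNX1a without the carboxy-terminal activation region, went from 9.41 FPKM to 23.7, 33.6 and 37.5. ENST00000344691, known as the full-length isoform RUNX1b of the proximal promoter, had 14.5, 29.1, 19.5 and 9.81. The short form was thus higher at each later day, while the long one was highest on day 3 and on day 9 below its day 0 value. As a share of RUNX1 FPKM, ENST00000358356 went from 26.9% to 33.1%, 45.5% and 52.3%, and ENST00000344691 from 41.3% to 40.7%, 26.4% and 13.7%. The ratio of the first to the second was 0.651, 0.813, 1.72 and 3.82 in the order of the days. Without ENST00000358356, RUNX1 had 25.6, 47.9, 40.3 and 34.2 FPKM, so the near-equal totals of the later days were sums of parts that differed in course.

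RUNX1c, the form of the distal promoter, is the name usually given to ENST00000300305 and ENST00000437180, and the table holds nothing to check it. The first had 0.267, 0.645, 0.378 and 0.435 FPKM from day 0 to day 9. The second was listed at 0 on day 0 and had 0.293, 2.23 and 4.63 FPKM on days 3, 6 and 9, which made it 6.46% of RUNX1 FPKM in the last library. Both were below ENST00000358356 and ENST00000344691 in every library.

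For RUNX2, 7 transcripts are listed, and ENST00000359524 led in every library. It went from 2.57 FPKM to 16.6, 13.0 and 11.7, and its share of RUNX2 FPKM was 34.9%, 63.5%, 67.5% and 64.4%. The rest of RUNX2 had 4.80, 9.56, 6.26 and 6.46 FPKM, higher on the later days but within the 2-fold limit as deposited. Without ENST00000359524, RUNX2 as deposited would thus not have passed the limit on any later day. Scaling to the same total raised the day 3 log2 ratio of the whole gene from 1.70 to 1.88. It was not applied to this remainder, which may pass the limit on day 3 under it. The leading transcript had log2 ratios to day 0 of 2.31, 1.97 and 1.83. Other transcripts of RUNX2 switched between a value and an exact 0, which can be a failed estimate of how reads divide among overlapping transcripts. ENST00000371432 had 1.81 FPKM on day 0, 24.6% of the gene, and was listed at 0 on days 3, 6 and 9. ENST00000371436 had 0.105, 2.9, 0 and 3.18 FPKM, and ENST00000625924 had 1.02, 2.54, 3.28 and 0. Of the 22 member transcripts with at least 1 FPKM in any library, 5 were listed at 0 in at least 1 library, against 10.6% of the 37418 such transcripts in the table. Shares of single transcripts are given with that limit, and FPKM carry no read counts from which an interval could be had.

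**Figure D2:**
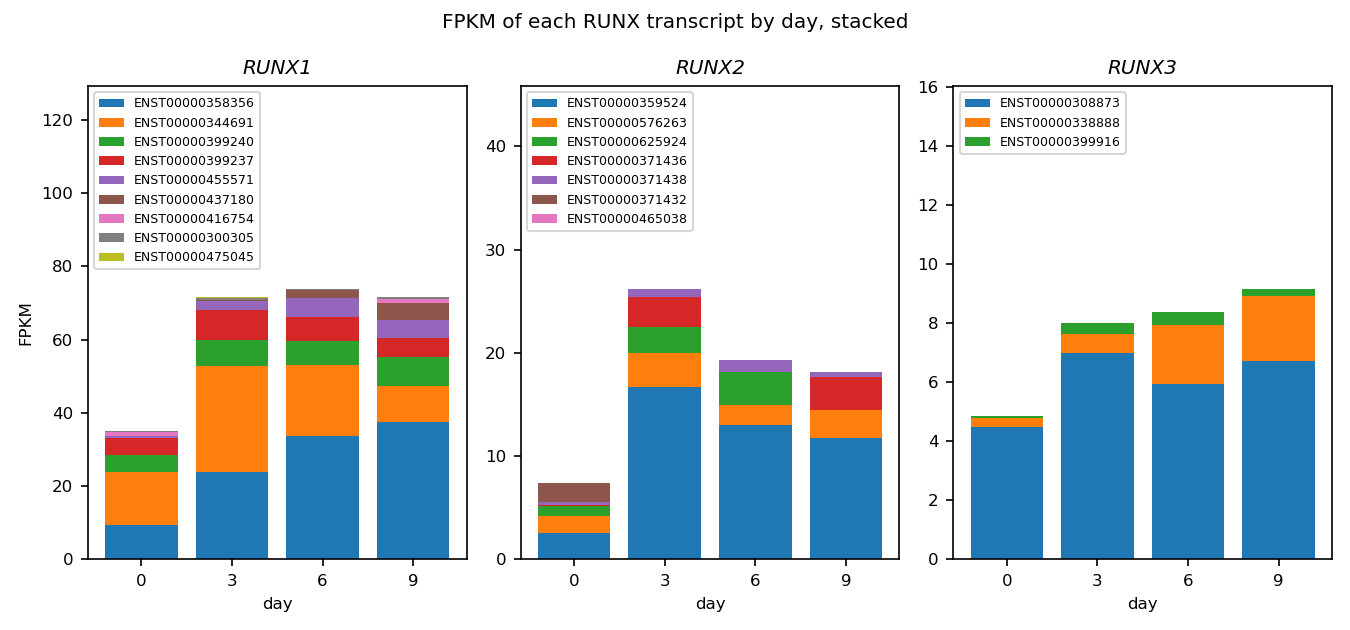
Stacked bars give the FPKM (vertical axis, from 0, a scale of its own for each gene) of each listed transcript of RUNX1, RUNX2 and RUNX3 on each day (horizontal axis). ENST00000358356 grows from 9.41 to 37.5 FPKM within RUNX1 while ENST00000344691 shrinks from 29.1 on day 3 to 9.81 on day 9, and ENST00000359524 makes up 63.5% or more of RUNX2 on the later days.

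In RUNX3 the leading transcript lost share. ENST00000308873 held 92.3% of its FPKM on day 0 and 87.2%, 71.0% and 73.1% later. ENST00000338888 went from 0.303 FPKM on day 0 to 0.648, 2.0 and 2.23, or from 6.24% to 24.4% of the gene on day 9. Its share was 8.10% on day 3, so most of the gain fell between days 3 and 6.

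MSX2 (ENSG00000120149), a homeodomain repressor that keeps osteoblast precursors dividing, had the greatest log2 ratio to day 0 of the 9 members on each later day. Its FPKM were 1.01 in the control and 6.97, 5.38 and 5.57 afterwards. The later libraries formed a group of their own above day 0, with day 3 the highest. The log2 ratios of 1.99, 1.67 and 1.71 were exceeded by 1.70%, 3.24% and 3.43% of all genes. They rest on a day 0 level near the 1 FPKM added, and with 0.1 added they were 2.67, 2.31 and 2.35. Both MSX2 transcripts were higher on the later days, ENST00000239243 from 0.858 FPKM to 4.64, 4.04 and 4.78 and ENST00000507785 from 0.152 to 2.33, 1.35 and 0.792.

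MSX1 (ENSG00000163132), its paralog in craniofacial and limb tissue, had 1 transcript, which went from 5.18 FPKM to 6.05, 7.24 and 8.40. Each library was above the one before, with log2 ratios to day 0 of 0.19, 0.42 and 0.61, all within the 2-fold limit. Relative to MSX1, MSX2 stood at 0.195 times the FPKM on day 0 and at 1.15, 0.744 and 0.663 times later. MSX2 was thus the more abundant of both on day 3 and in no other library.

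DLX5 (ENSG00000105880), which with BMP signals turns on RUNX2 and SP7, was low throughout, with 1.72, 2.63, 2.12 and 1.34 FPKM in the order of the days. Day 0 lay between the later libraries, so the groups overlapped. The log2 ratios were 0.42, 0.20 and -0.22, and that of day 6 turned to -0.15 when the leading transcript ENST00000222598 was taken alone. The second transcript, ENST00000486603, was listed at 0 on day 0 and had 0.719, 0.676 and 0.252 FPKM later.

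SP7 (ENSG00000170374), the zinc finger factor needed for bone formation after RUNX2, stayed near 0 in all libraries. Its 4 transcripts added up to 0.109, 0.134, 0.0986 and 0.274 FPKM in the order of the days. Nearly all of it came from ENST00000303846, with 0.109, 0.117, 0.0986 and 0.274 FPKM. No ratio is read from values this low. Between 99.4% and 99.8% of the 12859 genes had a higher FPKM, depending on the library. Those genes all reached 1 FPKM in any library and SP7 did not, so the filter largely sets this share. It was not computed over all 19610 symbols.

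**Figure D3:**
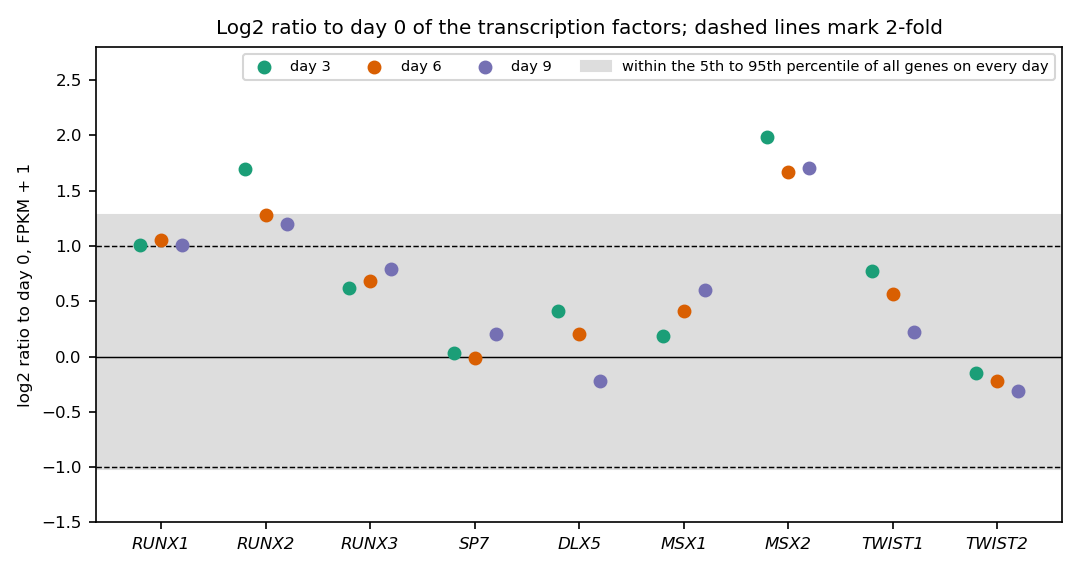
Points give the log2 ratio to day 0 (vertical axis, after 1 was added to each FPKM) of each factor (horizontal axis) on days 3, 6 and 9, the dashed lines mark the 2-fold limit, and the grey band is the range that lies within the 5th to 95th percentile of all genes on every day. RUNX1, RUNX2 and MSX2 are above the upper dashed line on all 3 days, and only MSX2 is above the grey band on all of them.

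TWIST1 (ENSG00000122691) had 1 transcript, at 15.1 FPKM before induction and 26.6, 22.9 and 17.8 after it. All later libraries were above day 0, and the distance shrank from day 3 on. The log2 ratios of 0.77, 0.57 and 0.22 were within the 2-fold limit. Set against RUNX2, which it is known to inhibit, TWIST1 had 2.05 times the FPKM on day 0 and 1.02, 1.19 and 0.981 times on days 3, 6 and 9. The ratio was therefore highest on day 0, where both genes had their lowest values.

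TWIST2 (ENSG00000233608), a close relative of TWIST1, had 10.7 FPKM before induction and 9.53, 8.99 and 8.42 after it. It was the single member below day 0 in all 3 later libraries, and each library was below the one before, as for 13.0% of all genes. Its log2 ratios were -0.15, -0.22 and -0.31, and with libraries scaled to the same total that of day 3 turned to 0.03. The main transcript ENST00000612363 had 10.0 FPKM on day 0 and 8.66, 6.93 and 6.92 later, and ENST00000448943 had 0.638, 0.865, 2.06 and 1.49.

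Day 0 was below all 3 later libraries for RUNX1, RUNX2, RUNX3, MSX1, MSX2 and TWIST1. These are 6 of the 9 members, and 36.1% of all genes showed this order, with 46.0% above all later libraries. RUNX2, MSX2, TWIST1 and DLX5 had their highest value on day 3, as did 19.2% of all genes. RUNX3 and MSX1 instead were highest on day 9. By FPKM, the order on day 0 was RUNX1, TWIST1, TWIST2, RUNX2, MSX1, RUNX3, DLX5, MSX2 and SP7. On day 9 it was RUNX1, RUNX2, TWIST1, RUNX3, TWIST2, MSX1, MSX2, DLX5 and SP7. Over days 3 to 9, the ranges of RUNX2 (18.2 to 26.2 FPKM) and TWIST1 (17.8 to 26.6) overlapped, as did those of RUNX3 (8.0 to 9.16) and TWIST2 (8.42 to 9.53). That of MSX1 (6.05 to 8.40) overlapped with those of RUNX3 and MSX2 (5.38 to 6.97). The order changed among the later days for RUNX2 and TWIST1, for RUNX3 and TWIST2, and for MSX1 and MSX2. RUNX3 was above MSX1 in each later library. RUNX1, DLX5 (1.34 to 2.63) and SP7 did not overlap with any other member.

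**Figure D4:**
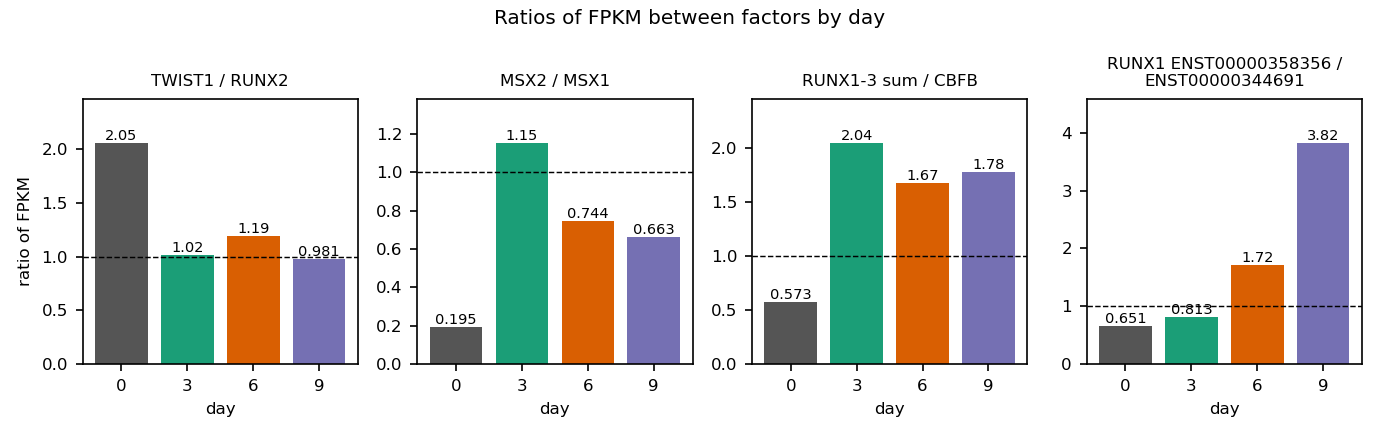
Bars give ratios of FPKM (vertical axis, from 0, a scale of its own for each panel) on each day (horizontal axis), with a dashed line at 1. TWIST1 to RUNX2 goes from 2.05 to near 1, MSX2 to MSX1 is highest on day 3 at 1.15, the summed RUNX genes pass CBFB after day 0, and the RUNX1a to RUNX1b transcript ratio goes from 0.651 to 3.82.

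The genes with the most similar course over the 4 libraries were found for the 3 members that varied at least 2-fold, by the root mean square difference of centred log2(FPKM + 1). For RUNX1 these were MINK1 (0.01), JUN (0.01) and BCL2L1 (0.02). For RUNX2 they were SEPT5 (0.02), TNFRSF14 (0.03) and PLK2 (0.05). For MSX2 they were L1CAM (0.03), THSD1 (0.06) and FAM46A (0.07). With 4 points, close matches are common: 228 genes lay within 0.1 of RUNX1, 27 of RUNX2 and 20 of MSX2.

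Among 22 listed partners and regulators of RUNX proteins, 21 reached 1 FPKM. By the 2-fold limit, 6, 4 and 4 genes were higher on days 3, 6 and 9 than on day 0, with 0 lower on each. For all genes the shares were 8.13%, 9.01% and 9.60% higher and 5.30%, 6.42% and 6.52% lower. The median log2 ratio of the list was 0.41, 0.44 and 0.35. On day 6 the count of 4 was 6 under either rescaling and 7 with the leading transcript of each gene alone, which also gave 1 lower on day 9. TLE2, a Groucho corepressor that RUNX proteins recruit, SMURF2, a ubiquitin ligase that marks RUNX2 for breakdown, and PADI4, a deiminase that turns arginine into citrulline and was listed because the study ties it to RUNX2, were higher on all 3 days. TLE2 had 0.985 FPKM on day 0 and 7.85, 6.27 and 3.51 later. SMURF2 went from 46.9 FPKM to 107.9, 125.2 and 134.5, with log2 ratios of 1.18, 1.40 and 1.5. Its relative SMURF1, named after its values were seen, had 12.7 FPKM on day 0 and 9.66, 10.5 and 10.3 later. PADI4 had 0.306 FPKM on day 0 and 6.33, 5.56 and 4.80 on days 3, 6 and 9. Of the 21, 8 had their highest value on day 3, TLE2 and PADI4 among them, as did 19.2% of all genes.

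TWIST proteins act as dimers with the E proteins TCF3, TCF4 and TCF12, and ID proteins, which lack a DNA-binding region, draw E proteins away from them. All 7 genes of this list reached 1 FPKM. The E protein genes stayed within the limit, with TCF3 at 62.5 FPKM on day 0 and 56.5 to 61.0 later, TCF4 at 43.6 and 46.2 to 54.4, and TCF12 at 44.9 and 48.7 to 57.7. The ID genes divided. ID1 had 53.8 FPKM on day 0 and 19.1, 10.6 and 10.6 later, with log2 ratios of -1.45, -2.24 and -2.24. ID4 had 3.70 FPKM and then 1.21, 0.674 and 0.460, and both were 2-fold lower on all 3 days. ID2, 2-fold lower on days 6 and 9 only, had 35.2, 21.0, 15.3 and 14.6 FPKM. ID3 stood at 92.3 FPKM on day 0 and at 167.3, 131.3 and 124.8 later, within the limit as deposited. In all, 2 of the 7 were 2-fold lower on day 3 and 3 on days 6 and 9, and 0 were higher. The shares of all genes that were lower on days 3, 6 and 9 were 5.30%, 6.42% and 6.52%. With scaling to the same total, 1, 2 and 3 were lower, and 1 was higher on day 3. ID4 then had a log2 ratio of -0.95 on day 3.

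Of 28 other transcription factors of bone and its precursors, 24 reached 1 FPKM. On each later day 3 were 2-fold higher, while 2, 2 and 3 were 2-fold lower on days 3, 6 and 9. Of all genes, 8.13%, 9.01% and 9.60% were higher on these days and 5.30%, 6.42% and 6.52% lower. So few genes past the limit do not set this list apart from all genes. Its median log2 ratio was 0.03, 0.13 and 0.14. FOSL2, an AP-1 factor, and VDR, the vitamin D receptor, were higher on all 3 days. FOSL2 had 42.9 FPKM on day 0 and 112.0, 113.2 and 101.9 later, and VDR had 5.56 and then 12.2, 13.0 and 13.6. DLX2 and PRRX2, homeodomain factors of the facial and limb skeleton, were lower on all 3 days. DLX2 had 9.95 FPKM on day 0 and 3.27, 1.68 and 1.44 later, and PRRX2 had 19.1 and then 6.95, 8.44 and 7.92. The day 6 log2 ratio of PRRX2, -1.09 as deposited, no longer passed the limit with rescaling by the median of ratios (-0.97) or to the same total (-0.93). DLX6, the neighbour of DLX5 in the genome, was named after its values were seen and had 0.127 to 0.337 FPKM, under the minimum.

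Bone genes known to lie downstream of RUNX2 and SP7 served as a check of the labelled cell type, and whether they depend on these factors here was not tested. Of 20, 11 reached 1 FPKM, 5, 6 and 5 were 2-fold higher on days 3, 6 and 9, and 0 were lower. Among all genes 8.13%, 9.01% and 9.60% were higher on these days. The median log2 ratio of the list was 0.69, 1.03 and 0.97. COL1A1, the main bone collagen chain, had 776.8 FPKM on day 0 and 1974, 1587 and 1146 later, with log2 ratios of 1.34, 1.03 and 0.56. COL1A2 had 125.3 FPKM and then 855.5, 753.4 and 560.6. Both collagen chains were highest on day 3, like RUNX2. ALPL, the alkaline phosphatase of mineralizing osteoblasts, had 0.294 FPKM on day 0 and 4.32, 4.35 and 4.18 later. SPP1 (osteopontin) had 0.794, 1.89, 5.14 and 7.45, a course that was higher at each day. SPARC (osteonectin), abundant in every library, stood at 1113 FPKM on day 0 and 1275 to 1469 later. IBSP, bone sialoprotein, was listed at 0 on day 0 and had 0.0714, 0.133 and 0.609 FPKM later. BGLAP, osteocalcin, was also listed at 0 on day 0, with 0.781, 0.426 and 0.793 later. These 2 late markers, which belong to mature osteoblasts, did not reach 1 FPKM in any library. TNFRSF11B (osteoprotegerin) went from 2.54 FPKM to 20.2, 24.9 and 26.5, and VEGFA, the vascular growth factor, from 19.1 to 77.0, 101.7 and 113.4.

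**Figure D5:**
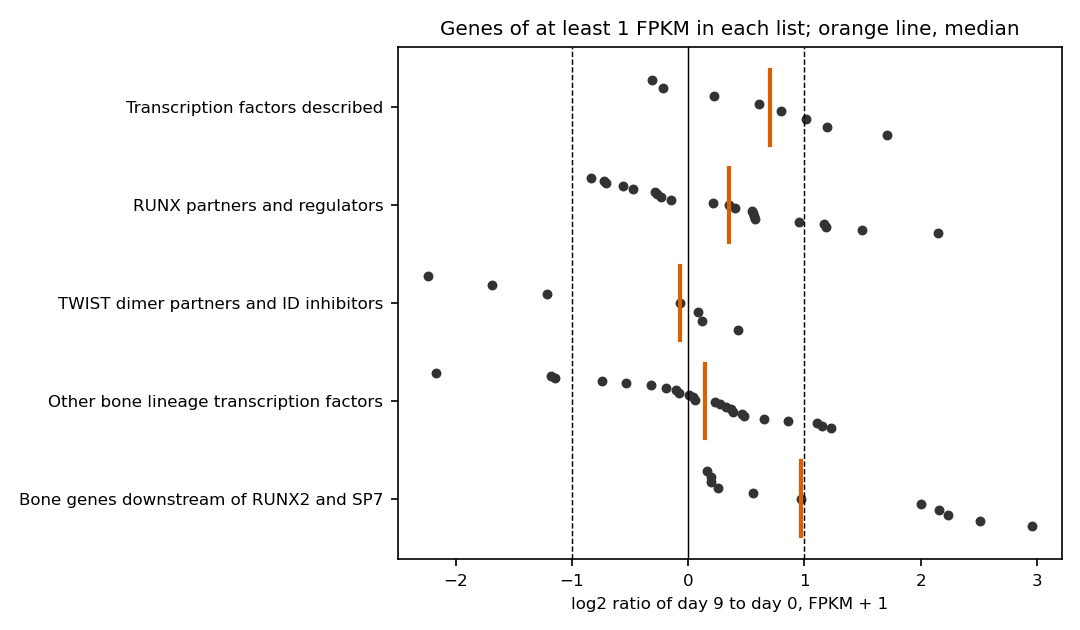
Points give the log2 ratio of day 9 to day 0 (horizontal axis, after 1 was added to each FPKM) of each gene of at least 1 FPKM in 5 lists (vertical axis), orange lines are list medians and dashed lines mark the 2-fold limit. The median of the described factors is 0.70 and that of the bone genes 0.97, while the other bone lineage factors lie around 0.14 with genes on both sides.

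Genes of cell division and of the cold response also stood apart between day 0 and the later days. Of the 6 listed, 4 were 2-fold lower on days 3 and 6 and 5 on day 9, against 5.30%, 6.42% and 6.52% of all genes. CDK1 was within the limit, with log2 ratios of -0.48, -0.48 and -0.55. With scaling to the same total, MKI67 was within it on each later day, at -0.94, -0.82 and -0.99. TOP2A then was within it on days 3 and 6, at -0.77 and -0.89. CCNB1, a mitotic cyclin, had 225.1 FPKM on day 0 and 31.9 to 36.4 later, and RBM3, which cells make at low temperature, had 272.4 and then 8.32 to 9.21. CIRBP, another cold-induced gene, had 149.0 FPKM on day 0 and 47.9 to 60.7 later. Their part in the levels of the transcription factors was not tested.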

How the data were processed

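RNA of hFOB1.19 cells was sequenced on days 0, 3, 6 and 9, with 1 library per day and columns matched by the day in the titles. The authors deposited FPKM per transcript with no read counts, so depth per gene is unknown and no interval could be given. The study's methods state rRNA removal, RNase R for the mRNA libraries, a directional kit, and alignment with Bowtie and TopHat. They place RNase R in the mRNA libraries and not in those of circRNA, which could not be checked here. The submitters' processing notes name another Bowtie version than these methods, 0.12.2, and the mouse build mm8 for this human line, so the build behind the FPKM is unsettled. The program behind the FPKM is not given in the sources used here. Tables of the authors' own comparisons, which hold fold changes, p-values and q-values, and the circRNA and lncRNA files were not used.

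FPKM were summed per symbol, 1 was added before log2, and a gene needed 1 FPKM in any library. Rules of size replaced tests. The simulated data on which they were run held no variation between libraries, so that run checked the arithmetic and not how often the rules err. Members and gene lists were chosen with earlier results of these data known. All 9 members were named. From the lists, genes 2-fold higher or lower on all 3 later days were named, with CBFB, the E proteins, the osteoblast markers COL1A1, COL1A2, ALPL, SPARC, IBSP, BGLAP and SPP1, and the 3 genes of most similar course for each member with a log2 range of at least 1. Any other gene is marked or was named to account for a count. Alternatives covered the pseudocount, the minimum, the limit, 2 scalings and the leading transcript. Python 3.11.15, numpy 2.4.6, pandas 2.3.3 and matplotlib 3.10.9 were used.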

Additional observations from a re-analysis of the deposited data

How the results depend on the processing

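No paired analysis was possible because a single library stands for each day. RUNX1, RUNX2 and MSX2 remained the members past the limit on each later day with 0.1 added to the FPKM and with the leading transcript alone. The same held with rescaling by the median of ratios and with scaling to the same total, which was added after the data were seen. No minimum, or a minimum of 5 FPKM, gave the same members but changes no ratio. Adding 0.1 and both scalings raised the ratios of RUNX1 on each later day, so they could not take it below the limit. The leading transcript was that of highest mean over the libraries, for RUNX1 ENST00000358356. ENST00000344691, which led RUNX1 on days 0 and 3, had log2 ratios of 0.96, 0.41 and -0.52, within the limit. With a 4-fold limit, stricter by construction, the number of higher members was 0 on days 3, 6 and 9 against day 0. Every one of the 108 recomputed log2 ratios of members kept its side of the limit. With transcripts under 0.1 FPKM left out, the leading share of SP7 on day 3 went from 87.5% to 100%. Rescaling by the median of ratios moved the median log2 ratio of all genes on day 3 from -0.08 to 0.04, and the share of higher genes among those past the limit to 72.3% on day 3, 70.5% on day 6 and 69.7% on day 9, from 60.6%, 58.4% and 59.6%. Scaling to the same total gave 77.8%, 74.3% and 68.9%, with 399 and 507 genes lower on days 3 and 6 against 681 and 825 as deposited. With the 4-fold limit 214, 259 and 301 genes were higher and 99, 119 and 133 lower, against 1046, 1158 and 1234 and 681, 825 and 838. Between days 3 and 6, 78 genes were higher and 57 lower, with 0.1 added 180 and 143, and with the 4-fold limit 9 and 5, while a minimum of 5 FPKM left 36 lower. Between days 6 and 9 the counts were 49 and 21, with 0.1 added 116 and 107, with the leading transcript alone 80 and 50, and with the 4-fold limit 9 and 4, while a minimum of 5 FPKM left 11 lower. Without replicates or counts, no difference given here can be told from variation between libraries, and those near the limit, such as those of RUNX1, least of all.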

Other observations

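Factors and markers of neighbouring lineages were read from the same table. SOX9, the master factor of cartilage, had 1.21 FPKM on day 0 and 4.48, 5.08 and 5.32 on days 3, 6 and 9, 2-fold higher on each later day. The cartilage matrix genes COL2A1 and ACAN, named after their values were seen, stayed at or under 0.278 FPKM in every library. MATN3, another cartilage matrix gene and the most abundant of the list, had 16.9 FPKM on day 0 and 11.7, 8.21 and 8.33 later, with log2 ratios of -0.50, -0.96 and -0.94, and SOX5, a partner of SOX9, had 0.347, 1.56, 0.521 and 1.46 FPKM, both also named after their values were seen. PPARG, the fat lineage factor, also named after its values were seen, had 2.75, 5.17, 6.19 and 6.26 FPKM, with log2 ratios of 0.72, 0.94 and 0.96 that passed the limit on days 6 and 9 with scaling to the same total, while the other 5 fat markers did not reach 1 FPKM. All 5 muscle markers were below 1 FPKM in every library, the highest value being 0.656. Of the 4 endothelial markers, 3 did not reach 1 FPKM, and TEK, which was seen first and then named, had 9.97 to 16.6 FPKM. Of the 7 blood and osteoclast markers, 6 did not reach 1 FPKM. The exception, ACP5, had 0.766 FPKM on day 0 and 4.11, 3.47 and 5.57 later, and CALCR was listed at 0 in every library. The RNA of SOX9 and ACP5 was thus higher on the later days without that of the other markers in their lists passing the limit on all 3 days.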
